A study of Mus musculus with 16 samples.

Results

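Ribosome footprints of mouse T cell leukaemia were compared between a diet without valine and diets with partial valine. The 3036 genes described were those with a mean footprint level of 20 FPKM or more over the 8 footprint libraries of the series, out of 12012 genes in the table. FPKM counts fragments relative to gene length and to the size of the library. The comparison used 6 of the 16 libraries. Of these, 2 came from mice fed 0 g/kg valine and 4 from mice fed 0.4 or 0.8 g/kg valine, here called partial valine. Under the threshold of 20 FPKM lay Abcb9, with a mean of 19.994 FPKM, and Fdps, with 19.989 FPKM. Pxn and Eif2s1 lay just inside it.

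All mice were C57BL/6 and carried secondary transplants of T-ALL (T cell acute lymphoblastic leukaemia) driven by NOTCH-delta E, an activated form of the Notch receptor. They ate their diet for 3 weeks, and leukaemic cells were sorted from the spleen by GFP, a fluorescent protein that marked them. Each diet gave 2 libraries of ribosome-protected RNA (RPF) and 2 of total RNA, numbered T-ALL 2 and T-ALL 3. What the numbers stand for (a primary tumour, a recipient mouse or both) is not stated, so the p-values cover the spread of these libraries alone, which may be technical. The valine doses follow the characteristics of each sample, while the protocol speaks of 0.4 and 0.8 g per litre of drinking water added to the diet without valine. Not used for the comparison were the 2 RPF libraries at 8 g/kg valine, the control diet, whose values are given where they help to place the others.

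Ribosome profiling sequences the short mRNA pieces left inside ribosomes after nuclease digestion, so a gene's footprints reflect both its mRNA and how densely ribosomes sit on it. Valine is an essential branched-chain amino acid that cells take up, load onto tRNA and use in protein synthesis. When an amino acid runs short, uncharged tRNA activates the kinase GCN2, general initiation slows, and translation of the transcription factor ATF4 is favoured. The series title ties valine supply to complex I, the NADH dehydrogenase of the mitochondrial respiratory chain.

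Footprint depth was low. Reads recovered from the FPKM values numbered 80367 in T-ALL 2 and 79154 in T-ALL 3 at 0 g/kg, 140641 and 58529 at 0.4 g/kg, and 205545 and 115202 at 0.8 g/kg, each pair in the same order. The 3036 genes held between 77.1% and 80.6% of the reads of a library, with a median of 92 reads per gene over the 6 libraries. Pearson correlations between libraries over these genes, on the log2(FPKM + 0.5) scale, lay between 0.57 and 0.84. The cells carried T cell and Notch transcripts in every library: Cd3e, a chain of the T cell receptor complex, had 394 and 362 FPKM at 0 g/kg and 372 to 672 FPKM in the 4 partial libraries. The B cell list (2 genes in the table) took at most 0.249 reads per 10000, and the only platelet gene listed was at 0 in all 6 libraries. The natural killer cell list (5 genes) took 2.02 to 5.30 reads per 10000, and the stromal and endothelial list (5 genes) 1.64 to 3.08. Macrophage markers (8 genes) took 0.342 to 2.24, with the highest value in T-ALL 2 at 0 g/kg.

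Neutrophil transcripts differed between the diets. The 11 neutrophil genes in the table took 26.8 reads per 10000 in T-ALL 2 and 3.41 in T-ALL 3 at 0 g/kg, against 0.389 to 1.03 in the partial libraries. S100a9, a component of calprotectin and a major neutrophil product, had 1091 FPKM in T-ALL 2 and 107 FPKM in T-ALL 3 at 0 g/kg. In the partial libraries S100a9 had 13.5, 0, 9.19 and 0 FPKM. The T-ALL 2 library at 0 g/kg therefore held most of these reads. Of the 11 genes, 5 had a mean of 20 FPKM or more, and all 5 reached it through the libraries at 0 g/kg alone, so the direction of these 5 was fixed by the threshold. The erythroid list took 0.498 and 2.53 reads per 10000 at 0 g/kg and 2.52 to 4.44 in the partial libraries. The part of such cells in the results below was not tested.

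No gene passed the test between 0 g/kg and partial valine. limma found 0 of 9718 genes (0%) at an adjusted p under 0.05, and the smallest adjusted p of the 3036 genes was 0.153, for Mrpl27. At an unadjusted p under 0.05, 57 of the 3036 genes (1.88%) were higher and 171 (5.63%) lower at 0 g/kg, against 2.1% and 3.46% of all 9718 genes tested. Both libraries at 0 g/kg lay above all 4 partial libraries for 145 genes (4.78%) and below all 4 for 338 genes (11.1%). Over all genes tested these shares were 6.81% and 6.99%. Of the 3036 genes, 1720 had a negative and 1316 a positive log2 difference, with a median of -0.10 against -0.02 for all genes tested. The threshold itself bears on these counts, since a gene can reach it through the group where it is high: 353 of the 3036 genes averaged under 20 FPKM at 0 g/kg and 193 at partial valine. Of the 57 higher and 171 lower genes at an unadjusted p under 0.05, 18 and 59 were of this kind. Among the 2527 genes of 20 FPKM or more in both groups, 39 (1.54%) were higher and 112 (4.43%) lower. With 1 library at 0 g/kg left out, the same limma fit called some of the 3036 genes, where the 1 library left is assumed to vary like the partial ones. Without T-ALL 2 the log2 difference was -2.53 for Scaf8 and -6.95 for Znrd1. Without T-ALL 3 it was 2.2 for Hes1 and -6.88 for Kctd17. Gm10181, with 3 reads at 0 g/kg and 0 at partial valine, had 9.33 without T-ALL 2 and 8.33 without T-ALL 3. The count of calls also changed at equal depth, with each library thinned once, at random, to 58529 reads. There limma called 72 of all 9718 genes. Among the 3036 genes it called 1 higher, Gm10217 (log2 difference 7.81), and 5 lower. The lower ones were Znrd1 (-7.26), Nudt14 (-6.42), Dctn3 (-6.41), Mrpl27 (-5.96) and Tmem50a (-1.31). Why the count changed was not tested. A fit on recovered reads (limma's voom, adjusted p) called 5 of the 3036 genes and 10 of all 9718 (0.103%), all 5 of them higher at 0 g/kg. On that scale the median log2 difference was 0.16 over all genes and 0.02 over the 3036, so differences on the 2 scales are to be read relative to their own medians.

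Histone genes had fewer footprints on the diet without valine. Core histones, the proteins around which DNA is wound, took 362 reads per 10000 in T-ALL 2 and 326 in T-ALL 3 at 0 g/kg. The partial libraries had 523 and 627 at 0.4 g/kg and 411 and 643 at 0.8 g/kg. Both libraries at 0 g/kg lay below all 4 partial libraries, and the libraries at 8 g/kg, with 557 and 589, lay among the partial ones. In a bulk sample, fewer cells in a state and less RNA per cell cannot be told apart. Of the 51 core histone genes of 20 FPKM or more, 50 (98%) had a negative log2 difference, against 56.7% of all 3036 genes. For 28 both libraries at 0 g/kg lay below all 4 partial ones, which held for 11.1% of the 3036. At an unadjusted p under 0.05, 15 (29.4%) were lower and 0 higher, against 5.63% and 1.88%. The median log2 difference of the list was -0.87, against -0.10 for all 3036 genes, and it was -0.50 in T-ALL 2 and -1.09 in T-ALL 3. The 1 core histone with a positive value was Hist1h2an (0.32). Only 2 of the 51 averaged under 20 FPKM at 0 g/kg, and the median of the other 49 was -0.82.

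Single histone genes showed the same order of libraries. Hist1h3f, an H3 gene and one of the most abundant genes of the table, had 5603 and 5243 FPKM at 0 g/kg. The partial libraries had 9306 and 10180.0 FPKM at 0.4 g/kg and 6955 and 12853 FPKM at 0.8 g/kg, so the groups did not overlap. Its log2 difference was -0.82 ± 0.45 (SE), and its adjusted p of 0.793 (limma) did not pass. Hist1h2be, an H2B gene, averaged 116 ± 9.96 FPKM at 0 g/kg (SD, n = 2) and 234 ± 29.0 FPKM at partial valine (SD, n = 4), a log2 difference of -1.0 ± 0.20 (SE). Histone genes are close copies of each other and may share reads, which makes the value of any 1 of them uncertain.

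Linker histones, which bind DNA between nucleosomes, followed the core histones. All 5 genes of the list had a negative difference, against 56.7% of all 3036 genes. For all 5 both libraries at 0 g/kg lay below all 4 partial ones, which held for 11.1% of the 3036. At an unadjusted p under 0.05 (limma), 1 (20%) was lower and 0 higher, against 5.63% and 1.88%. Hist1h1e had 401 and 547 FPKM at 0 g/kg, against 955, 1215, 982 and 1313.5 FPKM in the partial libraries. The log2 difference of Hist1h1e was -1.24 ± 0.26 (SE) with an adjusted p of 0.368 (limma). The more abundant Hist1h1b averaged 4185 ± 1118 FPKM at 0 g/kg (SD, n = 2), against 7631 ± 1114 FPKM at partial valine (SD, n = 4).

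**Figure D1:**
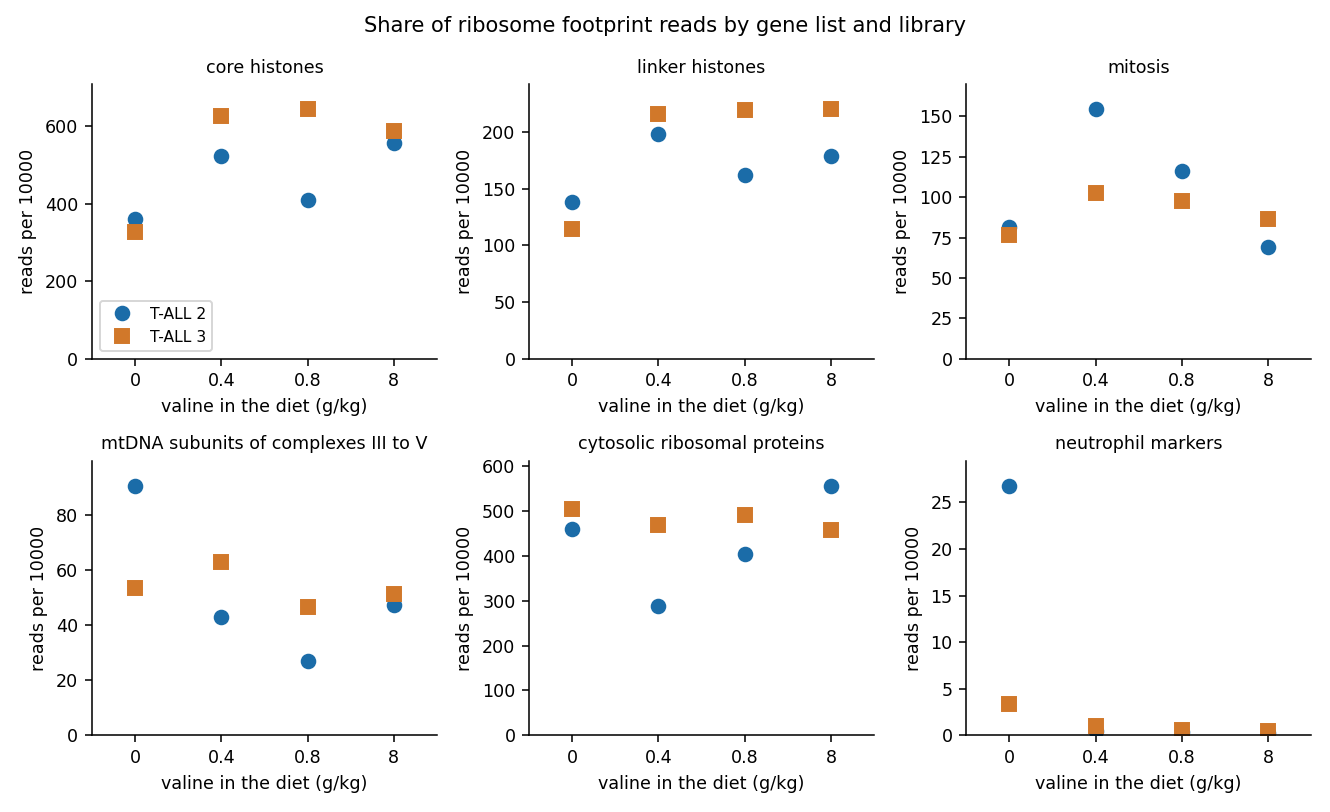
Reads per 10000 footprint reads (y) for 6 gene lists in each RPF library by valine in the diet (x, g/kg), with circles for T-ALL 2 and squares for T-ALL 3. Core histones took 362 and 326 reads per 10000 at 0 g/kg, below the 411 to 643 of the partial libraries, and the neutrophil genes peak in 1 library at 0 g/kg.

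Genes of mitosis also had fewer footprints at 0 g/kg. The list, which holds spindle motors, cyclins and checkpoint kinases, took 81.6 and 76.6 reads per 10000 at 0 g/kg, against 154, 102, 116 and 97.8 in the partial libraries. The groups did not overlap. The 2 libraries at 8 g/kg had 69.1 and 86.7, on the side of 0 g/kg, which is the opposite of the histones. Of 24 members of 20 FPKM or more, 23 had a negative difference and 20 of them in both T-ALL numbers. At an unadjusted p under 0.05, 7 (29.2%) were lower and 0 higher, against 5.63% and 1.88% of all 3036 genes. The median log2 difference was -0.90. It was -1.18 in T-ALL 2 and -0.46 in T-ALL 3, and -0.84 over the 22 members of 20 FPKM or more in both groups.

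Kif11, the motor that pushes spindle poles apart, had 32.3 and 34.4 FPKM at 0 g/kg. The partial libraries had 118 and 50.3 FPKM at 0.4 g/kg and 88.1 and 64.5 FPKM at 0.8 g/kg. All 4 lay above both libraries at 0 g/kg, and the log2 difference was -1.18 ± 0.37 (SE; limma adjusted p = 0.716). Tacc3, a spindle protein, averaged 21.0 ± 2.65 FPKM at 0 g/kg (SD, n = 2) and 46.7 ± 12.8 FPKM at partial valine (SD, n = 4). Kif20a, a kinesin of late mitosis, had 40.5 and 24.8 FPKM at 0 g/kg and 51.0 to 94.2 FPKM in the partial libraries. The extremes of the list rested on few reads and on 1 library each. Aurka, a spindle pole kinase, had the lowest log2 difference (-2.24 ± 1.64 SE), where 0 g/kg gave 0 reads for T-ALL 2 and 7 for T-ALL 3, and the difference was -5.64 in T-ALL 2 and 1.17 in T-ALL 3. Aurkb, a kinase of the centromere, was the 1 gene with a positive value (0.99 ± 1.91 SE), with -0.18 in T-ALL 2 and 2.16 in T-ALL 3, where the library at 0.4 g/kg had 0 reads.

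DNA replication genes did not share this in their median. Of 29 members, 17 (58.6%) had a negative and 12 a positive difference, with a median of -0.08, against -0.10 for all 3036 genes. In total RNA 28 of the 29 had a positive difference. At an unadjusted p under 0.05 in RPF (limma), 3 (10.3%) were lower and 0 higher, against 5.63% and 1.88% of the 3036. Dnmt1, which copies DNA methylation at the replication fork, was lower, with 289 and 256 FPKM at 0 g/kg, against 572, 376, 407 and 359 FPKM in the partial libraries. Gart, from the nucleotide synthesis list, is an enzyme of purine synthesis. It had 123 and 94.3 FPKM at 0 g/kg and 162 to 223 FPKM at partial valine. Both groups of libraries were separate for each gene, and neither gene passed limma's test (adjusted p = 0.793 for Dnmt1 and 0.633 for Gart).

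**Figure D2:**
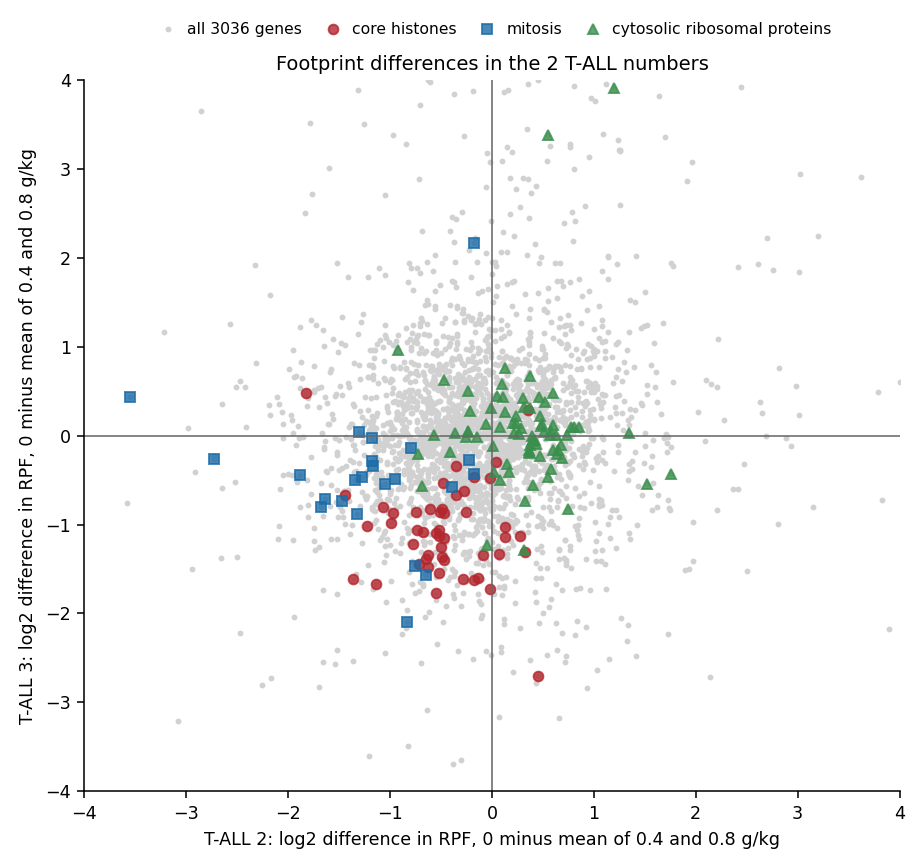
Log2 difference in RPF of each of the 3036 genes, 0 minus the mean of 0.4 and 0.8 g/kg, in T-ALL 2 (x) and T-ALL 3 (y), with core histones, mitosis and cytosolic ribosomal protein genes marked. Axes end at 4 and leave out 116 genes; 42 of 51 core histones and 20 of 24 mitosis genes lie below 0 in both.

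Beyond these groups, Ap3b1, Scaf8 and Lrig1 were among the lower genes with the smallest p, with few reads at 0 g/kg (23, 9 and 6). Ap3b1, a subunit of an adaptor complex for vesicles bound to lysosomes (chromosome 13, 94358960 to 94566316 of GRCm38.p6), had 33.1 and 30.3 FPKM at 0 g/kg from 23 reads. The partial libraries had 73.2 and 60.3 FPKM at 0.4 g/kg and 65.2 and 68.9 FPKM at 0.8 g/kg, from 146 reads. Footprints at 0 g/kg were thus about equal between the T-ALL numbers and below every partial library, while the 8 g/kg libraries had 5.24 FPKM from 1 read and 61.4 FPKM from 20 reads. The log2 difference between 0 g/kg and partial valine was -1.06 ± 0.22 (SE), the limma adjusted p 0.34. In total RNA Ap3b1 averaged 43.96 ± 5.67 FPKM at 0 g/kg (SD, n = 2) and 48.6 ± 10.1 FPKM at partial valine (SD, n = 4), a log2 difference of -0.12.

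Scaf8, a factor of transcription termination (chromosome 17, 3114972 to 3198859), had 13.7 and 6.81 FPKM at 0 g/kg from 9 reads. Its partial libraries had 44.6, 46.7, 37.2 and 39.7 FPKM from 107 reads, with a log2 difference of -2.06 ± 0.36 (SE; limma adjusted p = 0.246). The total RNA of Scaf8 differed by -0.12. Lrig1, a membrane protein that restrains growth factor receptors, had 4.48 and 8.94 FPKM at 0 g/kg from 6 reads. Its partial libraries had 25.5, 42.8, 28.9 and 44.1 FPKM from 88 reads. In total RNA Lrig1 had a log2 difference of -0.88, larger than that of Ap3b1 and Scaf8, with a limma adjusted p of 0.505.

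Other lower genes taken by the smallest p had still fewer reads at 0 g/kg. Scrn2, Tssc4 and Gadd45gip1 had 1 read in each library at 0 g/kg and 25, 35 and 35 reads in the partial libraries together. Bloc1s1, Psenen and Mrpl27 had 0 reads in both libraries at 0 g/kg and 12, 13 and 15 in the partial ones. With 3 reads put in for the 0 g/kg group, Bloc1s1 was 1.23-fold lower, Psenen 1.33-fold and Mrpl27 1.53-fold. These values leave out the counting error of the partial reads. At 8 g/kg Bloc1s1 also had 0 reads in both libraries, while Psenen had 1 and 2 reads and Mrpl27 had 2 and 2. The fitted values of genes without reads, such as -6.32 for Bloc1s1, depend on the pseudocount.

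Ppp1r15a was among the higher genes. It averaged 15.05 FPKM at partial valine and 15.01 FPKM at 8 g/kg, and so reached the threshold of 20 FPKM through the libraries at 0 g/kg alone. It encodes GADD34, which recruits a phosphatase to the initiation factor eIF2 and is induced by ATF4 in the amino acid response (chromosome 7, 45522917 to 45526268). It had 126 and 74.8 FPKM at 0 g/kg, from 32 and 19 reads, against 14.96, 27.0, 15.3 and 2.99 FPKM in the partial libraries. The groups did not overlap, the log2 difference was 2.98 ± 0.83 (SE), and the adjusted p was 0.609 by limma on FPKM and 0.000748 by voom on reads. Over all alternatives to the fit it ran from 0.000748 to 0.972, and voom alone gave a call. Total RNA of Ppp1r15a was 1.78 higher on the log2 scale.

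Usp1, a deubiquitinase of DNA repair, had 65.2 and 40.2 FPKM at 0 g/kg, against 23.5, 16.9, 21.3 and 16.4 FPKM in the partial libraries. It averaged 19.5 FPKM at partial valine, under the threshold. Its total RNA averaged 69.5 ± 3.02 FPKM at 0 g/kg (SD, n = 2) and 69.9 ± 20.9 FPKM at partial valine (SD, n = 4), a log2 difference of 0.04. Nt5c, a nucleotidase, had 110.2 and 134 FPKM at 0 g/kg and 46.3 to 64.8 FPKM at partial valine. Ckb, the brain type creatine kinase, had 143 and 82.3 FPKM at 0 g/kg and 20.5 to 45.2 FPKM at partial valine, and its total RNA was also higher, by 1.35 on the log2 scale. 4933415A04Rik, Rp9 and Cdk2ap1 were likewise separate between the groups, with log2 differences of 1.66, 1.56 and 1.45. None of these 6 genes passed limma's test, with adjusted p-values of 0.341 to 0.609.

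**Figure D3:**
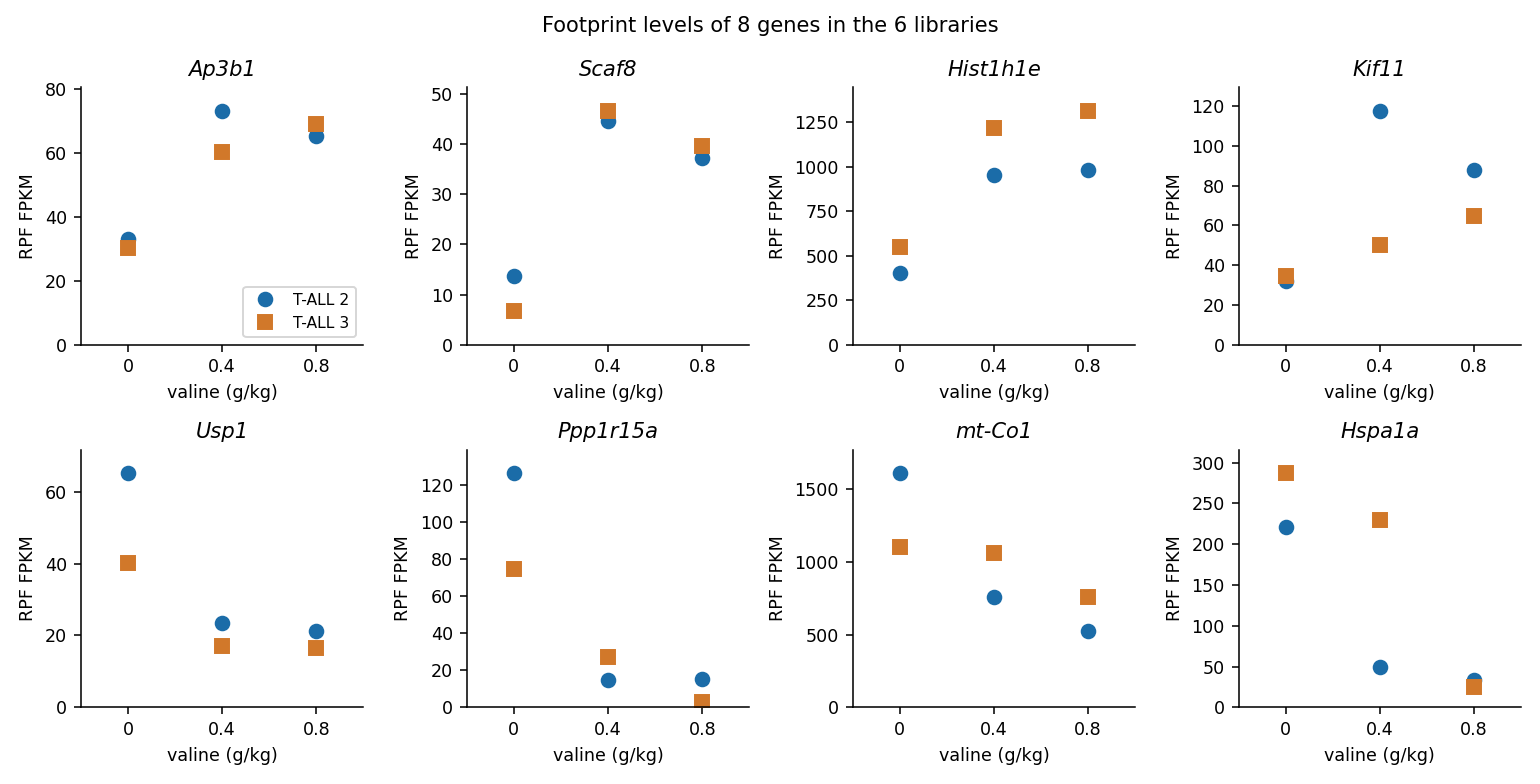
RPF FPKM (y) of 8 genes by valine in the diet (x, g/kg), with 1 point per library, circles for T-ALL 2 and squares for T-ALL 3. Ap3b1, Scaf8, Hist1h1e and Kif11 lie lower at 0 g/kg than in all 4 partial libraries, and Usp1, Ppp1r15a and mt-Co1 higher, while Hspa1a has 1 partial library (0.4 g/kg, T-ALL 3) between those at 0 g/kg.

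The respiratory chain draws its subunits from both genomes. Mitochondria make a few core subunits on their own ribosomes, and the others are made in the cytosol. The 6 mtDNA-encoded subunits of complexes III to V took 90.5 reads per 10000 in T-ALL 2 and 53.4 in T-ALL 3 at 0 g/kg, against 42.8, 62.7, 27.0 and 46.5 in the partial libraries. The T-ALL 3 library at 0.4 g/kg exceeded that at 0 g/kg, so the groups overlapped. All 6 genes had a positive log2 difference (median 0.56), but the median was 1.23 in T-ALL 2 and -0.12 in T-ALL 3. mt-Co1, the catalytic subunit of cytochrome oxidase, had 1609.5 and 1102.5 FPKM at 0 g/kg, against 757, 1059, 522 and 755 FPKM (log2 difference 0.83 ± 0.35 SE; limma adjusted p = 0.793). Its total RNA differed by -0.06.

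Of the 7 mtDNA-encoded complex I subunits, 5 had a positive difference, with a median of 0.71. They took 20.5 and 17.9 reads per 10000 at 0 g/kg, against 11.2, 19.6, 8.08 and 21.0 in the partial libraries, which overlapped. mt-Nd1 had 383 and 335 FPKM at 0 g/kg and 154 to 293 FPKM at partial valine, and mt-Nd4 had 266 and 185 FPKM at 0 g/kg and 81.3 to 171 FPKM at partial valine. Of the 32 nuclear complex I subunits, 22 (68.8%) had a negative difference, against 56.7% of all 3036 genes, with a median of -0.28. Of the 32, 2 (6.25%) were lower and 0 higher at an unadjusted p under 0.05, near the 5.63% lower of all 3036 genes. The difference between mtDNA-encoded and nuclear subunits was not tested. The accessory subunit Ndufb9 had 68.2 and 51.0 FPKM at 0 g/kg and 95.2 to 172 FPKM at partial valine, from 7 and 45 reads. In total RNA 26 of the 32 nuclear subunits were lower (median -0.19), and the median in translational efficiency (TE, the RPF minus the total RNA log2 value) was -0.09, against -0.06 for all 3036 genes.

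Nuclear subunits of complexes II to V had a median of -0.20 in RPF and -0.20 in total RNA. In the tricarboxylic acid cycle, 13 of 14 genes had a negative difference (median -0.32), among them Idh3a and Suclg1 with -1.35 and -1.45. These 2 (14.3%, against 5.63% of all 3036 genes) were the ones lower at an unadjusted p under 0.05, with 0 higher. Both averaged under 20 FPKM at 0 g/kg, so that they reached the threshold through the other libraries. Mitochondrial ribosomal proteins were mixed, with 19 higher and 16 lower.

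Cytosolic ribosomal proteins had slightly more footprints at 0 g/kg relative to their mRNA. Many mRNAs of this family begin with a 5′ terminal oligopyrimidine tract (TOP), a C followed by pyrimidines, through which the kinase mTORC1 and the protein LARP1 set their translation with amino acid supply. The sequences that follow show how such starts look. They run from 20 bases before the start to the 10th transcribed base, as RefSeq (GRCm38.p6) gives it, with the first 5 transcribed bases in capitals. They are the most abundant genes with the motif, from the ribosomal protein list (Rps6, Rps10, Rplp2, Rps18) and outside it (Hnrnpa0, Rps27rt, Shmt2, Rack1).
Rps6 (chr4:86857358-86857387, minus strand): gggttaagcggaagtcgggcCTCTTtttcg
Rps10 (chr17:27635235-27635264, minus strand): acgctgcgccgcgcacgcccCTTCCtttcc
Rplp2 (chr7:141447631-141447660, plus strand): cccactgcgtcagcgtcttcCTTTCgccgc
Rps18 (chr17:33955656-33955685, minus strand): acttatacgtcacttccgctCTCTCttcca
Hnrnpa0 (chr13:58128547-58128576, minus strand): gtgcgcgcgccttcagcggcCTCTTtgtgt
Rps27rt (chr9:114982730-114982759, minus strand): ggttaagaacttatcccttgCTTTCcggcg
Shmt2 (chr10:127522435-127522464, minus strand): tgcgcatgcgcagggaacgcCTCTTtcact
Rack1 (chr11:48800340-48800369, plus strand): tccggcggaggccgctctttCTTTTtctcc

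The motif searched was a C at the annotated start followed by 4 bases that are each C or T, on the transcribed strand. It was found at 823 of 32851 promoters in the table (2.51%). Of the 3036 genes, 2328 were matched by symbol and 77 of these (3.31%) held it, among them 13 of 57 matched ribosomal proteins. An annotated start can miss the true one by a few bases, so a missing match says little.

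The 13 ribosomal protein genes with the motif all had a positive RPF difference, with a median of 0.29 in RPF, -0.12 in total RNA and 0.40 in TE. The 44 matched ribosomal proteins without it had a median of 0.13 in RPF, -0.11 in total RNA and 0.20 in TE. The 64 genes with the motif outside the ribosomal protein list, Rps27rt and Rack1 among them, were 35 higher and 29 lower. Their median was 0.05, against -0.10 for the 2251 genes without the motif, which include the 44 ribosomal proteins. Rps18 had a log2 difference of 0.45 ± 0.30 (SE) in RPF and of -0.19 in total RNA. Hnrnpa0, an RNA-binding protein, had -0.37 ± 0.52 (SE) in RPF.

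Over the whole list, 58 of 78 cytosolic ribosomal proteins had a positive RPF difference (median 0.18) and 75 of 78 a negative one in total RNA (median -0.11). In TE 65 of 78 were positive, with a median of 0.27. None of the 78 was past an unadjusted p of 0.05 in RPF in either direction. The list took 461 and 504 reads per 10000 at 0 g/kg, against 289, 468, 404 and 492 in the partial libraries, which overlapped. The median was 0.36 in T-ALL 2 and 0.03 in T-ALL 3, and close to 0 (0.0026) against 0.8 g/kg alone. Rpl7a, a protein of the large subunit, had 245 and 148 FPKM at 0 g/kg and 80.6 to 145 FPKM at partial valine. Eef1a1, the factor that brings aminoacyl-tRNA to the ribosome, averaged 4383 ± 252 FPKM at 0 g/kg (SD, n = 2) and 4122 ± 682 FPKM at partial valine (SD, n = 4).

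Of 38 translation factors, 26 (68.4%) had a negative difference, against 56.7% of all 3036 genes, and their median of -0.11 was close to the -0.10 of all. At an unadjusted p under 0.05, 5 (13.2%) were lower, against 5.63% of the 3036 genes, and 1 higher, and 2 of the 5 averaged under 20 FPKM at 0 g/kg. Eif3i, a subunit of the initiation factor that joins the small ribosomal subunit, had 43.0 and 14.3 FPKM at 0 g/kg, against 90.4, 97.8, 88.3 and 65.1 FPKM in the partial libraries. Eif4a2, an RNA helicase of initiation, was the higher one, with 73.8 and 53.1 FPKM at 0 g/kg and 20.7 to 37.0 FPKM at partial valine. Neither passed limma's test (adjusted p = 0.571 and 0.691).

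Cytosolic tRNA synthetases, which load amino acids onto tRNA, were lower for 13 of 20 genes, with a median of -0.28 in RPF and 0.02 in total RNA. Tars, the threonine enzyme, had 29.5 and 46.2 FPKM at 0 g/kg, against 85.0, 86.2, 83.2 and 73.3 FPKM (limma adjusted p = 0.448). Qars, the glutamine enzyme, had 21.7 and 28.9 FPKM at 0 g/kg and 38.3 to 76.2 FPKM at partial valine. Vars, the valine enzyme, had 180 and 334 FPKM at 0 g/kg, against 443, 326, 311 and 343 FPKM. Its lower mean at 0 g/kg rested on T-ALL 2, where the log2 difference was -1.04. In T-ALL 3 it was -0.00053.

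The amino acid response was uneven. Of 12 measured members of 20 FPKM or more, 9 had a positive RPF difference, with a median of 0.24 in RPF and 0.28 in total RNA, and only Ppp1r15a was past an unadjusted p of 0.05. Ddit3, which encodes the stress factor CHOP, had 45.8 and 45.7 FPKM at 0 g/kg from 4 reads each, against 36.1, 15.6, 34.4 and 26.0 FPKM. Atf4 itself had 83.7 and 103 FPKM at 0 g/kg and 97.5 to 190.0 FPKM at partial valine, a log2 difference of -0.45 ± 0.32 (SE). Asns, the asparagine synthetase that ATF4 induces, lay below 20 FPKM and had 49.6 and 10.97 FPKM at 0 g/kg, against 38.2, 0, 2.36 and 24.99 FPKM. Amino acid transporters of 20 FPKM or more numbered 7, with a median of 0.02, and Slc7a5, the importer of large neutral amino acids including valine, had a log2 difference of 0.36 ± 0.28 (SE). For branched-chain amino acid catabolism, 3 genes were higher and 3 lower.

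Immediate early genes, which respond to stimulation or handling of cells, were higher at 0 g/kg in 13 of 14 cases, against 43.3% of all 3036 genes. Of the 14, 8 were higher in both T-ALL numbers, against 692 of the 3036. Of the 13, 2 averaged under 20 FPKM at partial valine. At an unadjusted p under 0.05 (limma), 1 was higher and 0 lower, against 1.88% and 5.63% of all 3036 genes. The median was 0.76 in RPF and 0.94 in total RNA, and -0.16 in TE. Fos, a subunit of the AP-1 factor, had 79.0 and 57.7 FPKM at 0 g/kg, against 36.5, 43.1, 18.1 and 35.9 FPKM. The list took 21.0 and 36.1 reads per 10000 at 0 g/kg and 10.2, 35.9, 13.6 and 14.2 in the partial libraries. The T-ALL 3 library at 0.4 g/kg thus lay with that of T-ALL 3 at 0 g/kg, and the 8 g/kg libraries were as far apart, with 27.5 and 9.94. Of the 2 libraries at 0 g/kg, T-ALL 3 had the higher share here and T-ALL 2 that of neutrophil genes.

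Hspa1a, an inducible heat shock chaperone, had 221 and 287 FPKM at 0 g/kg, against 49.6, 229.7, 33.7 and 25.5 FPKM in the partial libraries. The high partial value was again that of T-ALL 3 at 0.4 g/kg. Its log2 difference was 2.16 ± 0.87 (SE) in RPF and 2.79 in total RNA, with an adjusted p of 0.793 by limma on FPKM and 9.7e-05 by voom, within a range of 9.7e-05 to 0.972 over all alternatives. Of the 14 heat shock chaperones, 9 had a negative difference, and Hspa8, the constitutive form, had 608 and 592 FPKM at 0 g/kg, against 614 to 782 FPKM. The calls by voom were Hspa1a, Ppp1r15a, S100a8, S100a9 and Dusp1, a phosphatase of MAP kinases and an immediate early gene. S100a8 and S100a9 are neutrophil genes, which like Ppp1r15a reached 20 FPKM through the libraries at 0 g/kg alone, and of the 5 genes below 20 FPKM that voom also called, Cd177 is one too, with 36.8 and 24.5 FPKM at 0 g/kg and 0 to 2.58 FPKM at partial valine.

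In the Notch pathway 6 of 12 genes were higher and 6 lower, with a median near 0. Hes1, a repressor that Notch switches on directly, had 310.04 and 97.9 FPKM at 0 g/kg, against 62.0, 61.9, 77.9 and 68.6 FPKM in the partial libraries. Both lay above the partial ones, but most of the mean was T-ALL 2, with a log2 difference of 2.15 against 0.58 in T-ALL 3. Notch3 had 88.3 and 85.2 FPKM at 0 g/kg, below the 104 to 169 FPKM of the partial libraries, with a log2 difference of -0.62 ± 0.24 (SE) in RPF and -0.08 in total RNA. Notch1, whose activated form drives these tumours, averaged 526 ± 62.2 FPKM at 0 g/kg (SD, n = 2) and 722 ± 148 FPKM at partial valine (SD, n = 4), with overlap. Myc, a growth regulator and Notch target in T-ALL, averaged 287.5 ± 40.1 FPKM at 0 g/kg (SD, n = 2) and 294 ± 63.2 FPKM at partial valine (SD, n = 4). T cell identity genes were 11 higher and 12 lower. Of these Cd8b1, a chain of the CD8 coreceptor, had 59.9 and 52.2 FPKM at 0 g/kg and 11.3 to 42.5 FPKM at partial valine.

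Of the proteasome subunits 27 of 39 (69.2%) were lower, against 56.7% of all 3036 genes (median -0.27 in RPF, -0.21 in total RNA). At an unadjusted p under 0.05 (limma), 2 (5.13%) were lower and 0 higher, near the 5.63% lower of the 3036. Psmc4, an ATPase of the regulatory particle, and Psma7, of the catalytic core, had log2 differences of -0.96 and -0.95. The highest of the list was Psma4, with 1.21. Glycolytic genes were 10 lower (76.9%) and 3 higher, with a median of -0.21, and 1 (7.69%) was lower at an unadjusted p under 0.05 (limma). Pfkp, a phosphofructokinase, had 30.9 and 16.6 FPKM at 0 g/kg, against 73.6, 48.7, 56.2 and 37.8 FPKM. The values for nucleotide synthesis (14 of 23 lower, median -0.27), endoplasmic reticulum chaperones (8 of 13, -0.16) and nucleolar ribosome biogenesis (19 of 32, -0.11) are to be read against 56.7% lower and a median of -0.10 over all 3036 genes. The actin cytoskeleton list took 204.8 and 214 reads per 10000 at 0 g/kg, below the 216.1, 239.9, 261 and 225 of the partial libraries, but 14 of its 25 genes had a negative difference and 11 a positive one, with a median of -0.16. The interferon response list took 30.4 and 27.8 reads per 10000 at 0 g/kg, above the 18.8, 24.4, 16.8 and 19.4 of the partial libraries. Of its 9 genes of 20 FPKM or more, 4 had a positive and 5 a negative difference, with a median of -0.08 over both T-ALL numbers, 0.45 in T-ALL 2 and 0.46 in T-ALL 3, and 2 reached the threshold through the libraries at 0 g/kg alone. Rnf213, a large ubiquitin ligase of this list, had 103.6 and 77.4 FPKM at 0 g/kg and 40.2 to 64.3 FPKM at partial valine.

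Total RNA from the same diets was compared with the footprints. limma called 2 of 10054 genes (0.0199%) in total RNA, of which Hist2h2aa1, an H2A gene, is among the 3036. Hist2h2aa1 fell to 332 and 296 FPKM in total RNA at 0 g/kg, against 662, 615, 599.9 and 669 FPKM at partial valine, by 1.02 on the log2 scale (adjusted p = 0.0315). Its RPF difference was -1.02 ± 0.47 (SE). This call was lost without any 1 of 3 partial total RNA libraries (0.4 g/kg of either T-ALL number, or 0.8 g/kg of T-ALL 2), when 0 of the 3036 genes were called. It was also lost with the T-ALL number as a block, when Hbb-bs, a beta globin gene, was called among the 3036 instead (limma adjusted p = 0.038). Across the 3036 genes the log2 differences in the 2 fractions had a Pearson's r of 0.30 and a Spearman's rho of 0.20, over genes that are no independent replicates.

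Core histones were lower in both fractions, by a median of -0.87 in RPF and -0.60 in total RNA, where all 51 were negative. The mitosis list had -0.90 in RPF and -0.44 in total RNA, where all 24 were negative. The mtDNA-encoded subunits of complexes III to V and the cytosolic and mitochondrial ribosomal proteins had positive medians in RPF (0.56, 0.18 and 0.13) beside medians of 0.02, -0.11 and -0.19 in total RNA. TE was tested directly: limma called 0 of 9361 genes (0%), with a smallest adjusted p of 0.578. At an unadjusted p under 0.05, 58 of the 3036 genes (1.91%) were higher and 128 (4.22%) lower in TE, against 1.75% and 3.37% of all genes tested. Ap3b1 had a TE difference of -0.94 and Scaf8 of -1.94.

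**Figure D4:**
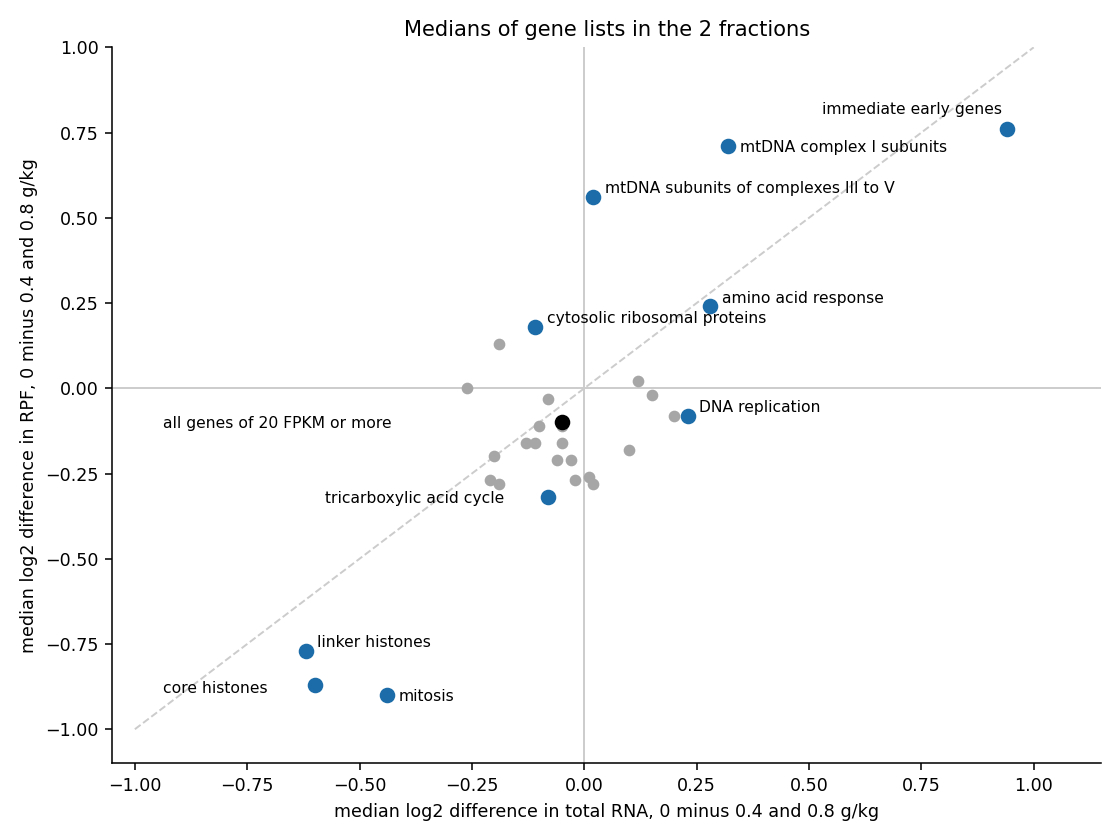
Median log2 difference of 30 gene lists with 5 or more genes of 20 FPKM or more, 0 minus 0.4 and 0.8 g/kg, in total RNA (x) and RPF (y). The dashed line marks equal values, the black point is all 3036 genes (-0.05 and -0.10), and the neutrophil list (4.12 and 5.06) is left out.

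For many genes the 2 T-ALL numbers did not show the same difference. The RPF log2 difference had the same sign in both T-ALL numbers for 1673 of the 3036 genes (55.1%), and across genes the 2 sets of differences had a Pearson's r of 0.08 and a Spearman's rho of 0.10. They share no library. A test of the difference between T-ALL numbers (limma interaction) called 0 of 9718 genes (0%), with a smallest adjusted p of 0.0518 for Uqcrb, a subunit of complex III. At an unadjusted p under 0.05 it took 173 (5.7%) and 121 (3.99%) of the 3036 genes in the 2 directions. Without any difference about 5% are expected over both directions together. Within partial valine, 0.4 against 0.8 g/kg gave 0 calls of 9718 (0%) by limma. At an unadjusted p under 0.05, 19 of the 3036 genes (0.626%) were higher and 59 (1.94%) lower at 0.4 g/kg. Core histones had medians of -0.84 against 0.4 g/kg alone and of -0.81 against 0.8 g/kg alone, comparisons that share the 0 g/kg libraries, and mitosis of -0.87 and -0.80. With 2 against 4 libraries an exact permutation test cannot give a two-sided p below 0.133, so none was run.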

How the data were processed

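Per the file headers, the authors deposited 1 table of FPKM for 12012 genes in 16 libraries, replicates kept apart, with Ensembl identifiers and symbols. Per the submitters' processing notes, the tools were STAR 2.5.0c, Bowtie2 2.3.4, edgeR 3.14.0 and cutadapt 1.18, with the builds mm10 and GRCm38, and their roles and the counting step are not stated there. Reads per gene were recovered from the FPKM steps, and 100% of the 149988 non-zero values gave whole reads with a tolerance of 0.02. Closely related genes may share reads.

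The fit was limma 3.58.1 (R 4.3.3) on log2(FPKM + 0.5) with a variance trend, for genes with a mean of at least 1 FPKM, 2 libraries against 4, two-sided, with Benjamini-Hochberg adjustment at 0.05 over all genes tested. A fold change on this scale understates that of low genes. The RPF fit was tested on simulated data, where it also called some unchanged genes. TE was fitted likewise, without a simulation of its own. A group at 0 was read as up to 3 reads over the group, which covers the counting error of that group only.

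The 3036 genes, the 38 gene lists and the tests were chosen with earlier results of these data known. The rule for named genes took up to 10 genes per direction past the test, filled to 10 with the smallest unadjusted p at an absolute log2 difference of 1 or more, up to 3 genes per list by smallest p, the 10 most abundant genes and a fixed set. A few of these are not reported here. Genes named as the highest or lowest of a list, as called by voom or in total RNA, or for their start sequence were chosen after their values were seen. Deviations of same-numbered RPF libraries from their diet means correlated only weakly, by 0.12, 0.13 and 0.14 over these genes. Whether the T-ALL numbers pair the samples is not stated, so a fit with that number as a block was an alternative.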

Additional observations from a re-analysis of the deposited data

Results flagged for a closer look

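Among the 4 partial libraries, 9 of 178 values examined (5.06%, where chance flags about 5%) stood apart from the other 3 by Dixon's ratio. The T-ALL 3 library at 0.4 g/kg held 5 of them. Its Hspa1a level was 229.7 FPKM against 25.5 to 49.6 FPKM in the other partial libraries, and the immediate early genes took 35.9 reads per 10000 there against 10.2 to 14.2. The same library had 32.9 FPKM of Elane, a neutrophil elastase listed at 0 in the others, 410.1 FPKM of Hba-a2, an alpha globin, against 182 to 198 FPKM, and a low value of Pola2, a subunit of DNA polymerase alpha, of 43.7 FPKM against 52.0 to 53.1 FPKM.

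The T-ALL 2 library at 0.4 g/kg stood apart for cytosolic tRNA synthetases, with 80.2 reads per 10000 against 59.4 to 62.7, and for DNA replication, with 164 against 123 to 128. The T-ALL 2 library at 0.8 g/kg had 16.6 FPKM of Slc38a1, a glutamine transporter, against 27.1 to 29.2 FPKM, and 6.82 FPKM of Hba-a1 from 1 read, against 0 in the others.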

How the results depend on the processing

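The count of genes called in RPF among the 3036 was 0, and it was 0 in 11 of 15 alternatives that left out no single library, the replicate block among them (0 calls). For total RNA, the deviations of same-numbered libraries had correlations of -0.11 to 0.13. There the replicate block also gave 1 call, Hbb-bs (limma adjusted p = 0.038) in place of Hist2h2aa1. Elsewhere the block changed no call. It was 1 with a pseudocount of 5, 4 without the variance trend, 5 with voom, 6 at equal depth and 0 to 14 when 1 library was left out. In total RNA the count was 1, against 4 with a pseudocount of 1, 12 when genes of 20 FPKM or more were tested alone and 0 to 7 when 1 library was left out. When 1 library was left out, TE gave 0 to 7 calls and 0.4 against 0.8 g/kg gave 0 to 3. Over all 9718 genes, the RPF calls went from 0 to 72 at equal depth and to 10 with voom. Of 140 named genes 130 kept their direction in all alternatives run. The direction turned for Myc (-0.01; 0.11 against 0.4 g/kg alone, 0.05 centred, 0.07 with voom, 0.10 at equal depth), Trib3 (0.01; -0.28 against 0.8 g/kg alone, -0.01 with a pseudocount of 5, -0.06 at equal depth), Eef1a1 (-0.09 against 0.8 g/kg alone), Ndufa4 (-0.45 against 0.8 g/kg alone) and Ctps (0.47 at equal depth). With 1 library left out, the log2 difference ranged from -0.18 to 0.13 for Myc, -1.78 to 1.8 for Trib3, -0.48 to 1.74 for Ndufa4, -0.97 to 4.06 for Hba-a1, -0.01 to 1.22 for mt-Cytb, -0.91 to 0.07 for Slc38a1, -0.77 to 0.12 for Hist2h2bb and -0.37 to 0.65 for Dtx1. The cause was not tested. Medians ranged from -1.09 to -0.50 for core histones and from -1.18 to -0.46 for mitosis over all alternatives, T-ALL number alone (chosen after seeing the data) included. Those of cytosolic ribosomal proteins ranged from 0.0026 to 0.36, and those of the mtDNA subunits of complexes III to V from -0.12 to 1.23. Depth limits single genes: 1379 of the 3036 (45.4%) have under 20 reads over both libraries at 0 g/kg.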
